A study of Homo sapiens with 95 samples.

Results

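FAT1 encodes an atypical cadherin, a large transmembrane protein at cell contacts that feeds into the Hippo pathway and is often inactivated in squamous tumours. The comparison described here set AALE cells with a CRISPR knockout of FAT1 against the matching control, cells given a Cas9 and EGFP plasmid with no guide RNA (GFP), while both were exposed to benzo[a]pyrene (BaP), a polycyclic hydrocarbon of tobacco smoke, at 173 µM. AALE is an immortalized line of human bronchial epithelium. The members were chosen by title, the 3 wells of FAT1 cells under BaP and the 3 wells of GFP cells under BaP, 6 of the 95 wells in the series. Other groups used beside them were the same 2 populations in the vehicle DMSO, in cigarette smoke condensate (CSC, 24 µg/ml) and in the tobacco nitrosamine NNK (490 µM), with 3 wells each, and cells overexpressing NRF2, NRG1 or PIK3CA under BaP, also 3 wells each. The study gives the overexpressing cells a control of their own, an HcRed vector, so GFP cells are not their matched control. Cells with HcRed, FGFR1 or CDKN2A (also a knockout) under BaP are in the series but were not used here. The sources used here do not give how long the cells were exposed. The study describes the wells of a group as biological replicates, and p-values measure the spread between these wells only. The labels do not say whether the knockout cells were 1 clone or a mixed population. On the plate the GFP wells filled columns 4 to 6 and the FAT1 wells columns 7 to 9, a row apart, so population and position on the plate cannot be told apart. The DMSO wells of these populations lay in rows A and B and the BaP wells in rows E and F. Their well barcodes held 1 G or C base in DMSO and 3 to 5 under BaP. Under BaP every FAT1 well had 5 and the GFP wells had 3, 4 and 5, so barcode also ran in part with population. Chemical therefore cannot be told apart from plate row or barcode either.

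BaP is a ligand of the aryl hydrocarbon receptor (AHR). Bound AHR enters the nucleus, pairs with ARNT and switches on CYP1A1 and CYP1B1, the enzymes that oxidize BaP to reactive metabolites. It also switches on TIPARP and AHRR, which restrain the receptor. The metabolites and redox cycling in turn engage NRF2 (gene NFE2L2), held low by KEAP1, whose targets include the quinone reductase NQO1, the aldo-keto reductases, ferritin and enzymes of glutathione and NADPH supply. The question put to these wells was how FAT1 and GFP cells differed under BaP, and whether genes of those 2 programs reached the same level in both.

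RNA was measured by 3′ digital gene expression, a method in which only the 3′ end of polyadenylated RNA is read and copies of 1 molecule, sharing a random tag (UMI), are counted once. Total counts ranged from 940354 to 1400153 per well, with means of 1323034 in FAT1 cells (SD 67647, n = 3) and 1100641 in GFP cells (SD 178607, n = 3), and this gap in depth ran along with the groups. Levels below are CPM, the counts of a gene relative to the total of its well (corrected with TMM factors), and differences are log2 of FAT1 over GFP from limma-voom with Benjamini-Hochberg adjustment. A gene was called when its adjusted p was under 0.05. Basal airway genes were present in every well, while all 7 listed ciliated and secretory markers, FOXJ1 and SCGB1A1 among them, were at 0 in all 6 wells. The immune markers PTPRC and CD3E were at 0 as well, but the immune list of 6 genes, CD14, CD68 and LYZ among them, summed to 15.2 to 24.4 CPM in FAT1 wells and 9.29 to 18.6 CPM in GFP wells, with none of 3 tested called. The endothelial markers VWF, CDH5 and KDR and the fibroblast markers COL1A2, COL3A1 and LUM were at 0 in all 6 wells. Pairs of wells of 1 group differed by more than sampling noise, with chi-square per gene from 1.21 to 1.53 on library totals. That excess cannot show that wells are independent, so their standing as replicates rests on the study's description.

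FAT1 itself was sparse. The FAT1 wells held 4, 0 and 1 counts of it and the GFP wells 7, 4 and 10. The difference was -2.46 (SE 0.74, adjusted p = 0.0209), with the 3 levels of the FAT1 wells at or under 3.12 CPM and those of the GFP wells at or over 4.13 CPM. That call was lost in DESeq2 (adjusted p = 0.187), without GFP replicate 3 (adjusted p = 0.0915), without FAT1 replicate 2 (adjusted p = 0.106) and without FAT1 replicate 3 (adjusted p = 0.0772). The gene lies on the minus strand of hg19 at chr4:187508948-187647876. Where the guide cut is not given in the sources used here, and a transcript disrupted far from its 3′ end would still be counted, so these counts check the label only in part.

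Across all genes the populations stood well apart under BaP. Of 10807 genes tested, 1254 were called (11.6%), 589 higher (5.45%) and 665 lower (6.15%) in FAT1 cells. With library totals in place of TMM factors the split was 479 higher and 820 lower, and DESeq2 called 639, 253 higher and 386 lower. Without GFP replicate 1 there were 314 higher and 639 lower calls, so that well moved the higher count by over 1.5 times. The median difference of all genes tested was 0.06. The lists of genes shown in the plot of differences by list are read below against this background. Variances were shared strongly between genes, with 37.8 prior against 4 residual degrees of freedom, so very small adjusted p-values rest on that sharing more than on 3 wells.

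**Figure D1:**
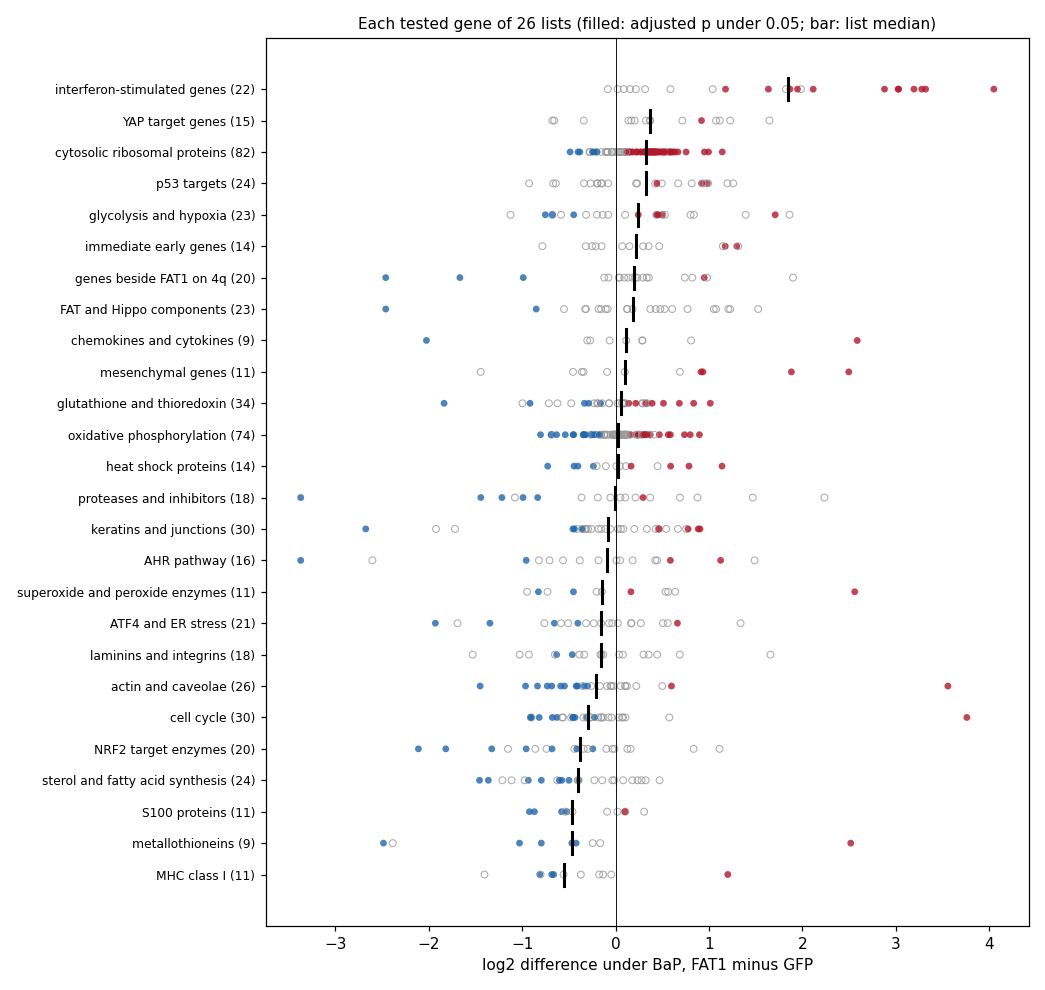
Log2 difference under BaP (FAT1 minus GFP, horizontal axis) of every tested gene in the 26 lists with at least 9 tested genes, sorted by list median (black bars), with the number tested in parentheses. Red and blue points are genes called higher and lower at adjusted p under 0.05, and open points were not called. The interferon-stimulated genes have the highest median, 1.85, and the MHC class I genes the lowest, -0.56.

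The AHR enzymes did not reach the same level. CYP1A1, at chr15:75011883-75017877 in hg19, stood at 96.1, 86.1 and 90.6 CPM in the FAT1 wells and at 46.5, 46.4 and 33.2 CPM in the GFP wells. Every FAT1 well lay above every GFP well, and the difference was 1.13 (SE 0.16, adjusted p = 4.67e-07). In DMSO the gene was almost silent in both, at 1.91 CPM (SD 2.0, n = 3) and 1.49 CPM (SD 0.65, n = 3).

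CYP1B1, the other inducible oxidizing enzyme, was at 115, 110 and 117 CPM in FAT1 cells and at 67.4, 81.5 and 82.4 CPM in GFP cells. The wells did not overlap, with a difference of 0.59 (SE 0.13, adjusted p = 0.00067). Without GFP replicate 1 the CYP1B1 difference was 0.43 with an adjusted p of 0.0521. In DMSO it was at 5.72 CPM (SD 0.59, n = 3) in FAT1 cells and 7.18 CPM (SD 2.24, n = 3) in GFP cells.

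Of the feedback genes, only TIPARP could be read, and it was not called. TIPARP, an ADP-ribosyltransferase that limits AHR, was at 40.6, 35.1 and 32.8 CPM in FAT1 cells and 34.1, 40.2 and 23.7 CPM in GFP cells. These wells overlapped and the difference of 0.18 had a 95% interval from -0.22 to 0.58 (adjusted p = 0.629). AHR differed by -0.18 (95% interval -0.85 to 0.48, adjusted p = 0.787) and ARNT by 0.05 (95% interval -0.50 to 0.60, adjusted p = 0.938), so no difference in receptor or partner was detectable at this depth. AHRR, the AHR repressor, was too sparse to read, with a level of at most 2.39 CPM in any of the 6 wells. Its difference of 1.49 (95% interval -0.36 to 3.34, adjusted p = 0.334) was not called.

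CYP1A2, the second gene of the CYP1A family, had no count in the FAT1 wells and 3, 3 and 1 counts in the GFP wells. Against a floor of 3 counts over the FAT1 wells it was at least 2.71-fold lower, and it was not called (adjusted p = 0.0512), though 10 of its 14 alternatives called it, with adjusted p from 0.00402 to 0.249 over the 14. The fit without GFP replicate 3 was among the 10 (adjusted p = 0.0353). SERPINB2, an inhibitor of plasminogen activators that AHR ligands induce, was at 0.781, 3.99 and 1.52 CPM in FAT1 cells against 16.3, 28.9 and 23.7 CPM in GFP cells, a difference of -3.37 (SE 0.54, adjusted p = 7.14e-06). Of 18 listed AHR pathway genes 16 were tested, 2 were higher (CYP1A1 and CYP1B1), 2 were lower (NQO1 and SERPINB2) and 12 were not called, with a median of -0.09. SLC7A5, the amino acid carrier, was not called at 0.45 (adjusted p = 0.0646).

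Set against DMSO, CYP1A1 rose under BaP by 6.10 (SE 0.57, adjusted p = 5.03e-13) in FAT1 cells and by 4.55 (SE 0.56, adjusted p = 8.57e-09) in GFP cells. The difference between these responses was 1.55 (95% interval -0.04 to 3.14, adjusted p = 0.766), so the larger level under BaP was not shown to be a larger induction. For CYP1B1 the same difference was 0.85 (95% interval 0.06 to 1.65, adjusted p = 0.737). Under CSC, which also engages AHR, CYP1A1 averaged 76.4 CPM in FAT1 and 48.5 CPM in GFP cells, and under NNK 7.28 and 11 CPM. Among the other populations used here under BaP, CYP1A1 averaged 61.1 CPM in NRF2, 18.7 CPM in NRG1 and 14.3 CPM in PIK3CA cells. All were below the mean of 90.9 CPM in FAT1 cells. For CYP1B1 every well of these populations also lay below every FAT1 well, but the NRG1 wells (98.5, 91.8 and 87.0 CPM) lay above every GFP well. TIPARP in the NRF2 wells (39.9, 43.3 and 38.7 CPM) overlapped the FAT1 wells.

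**Figure D2:**
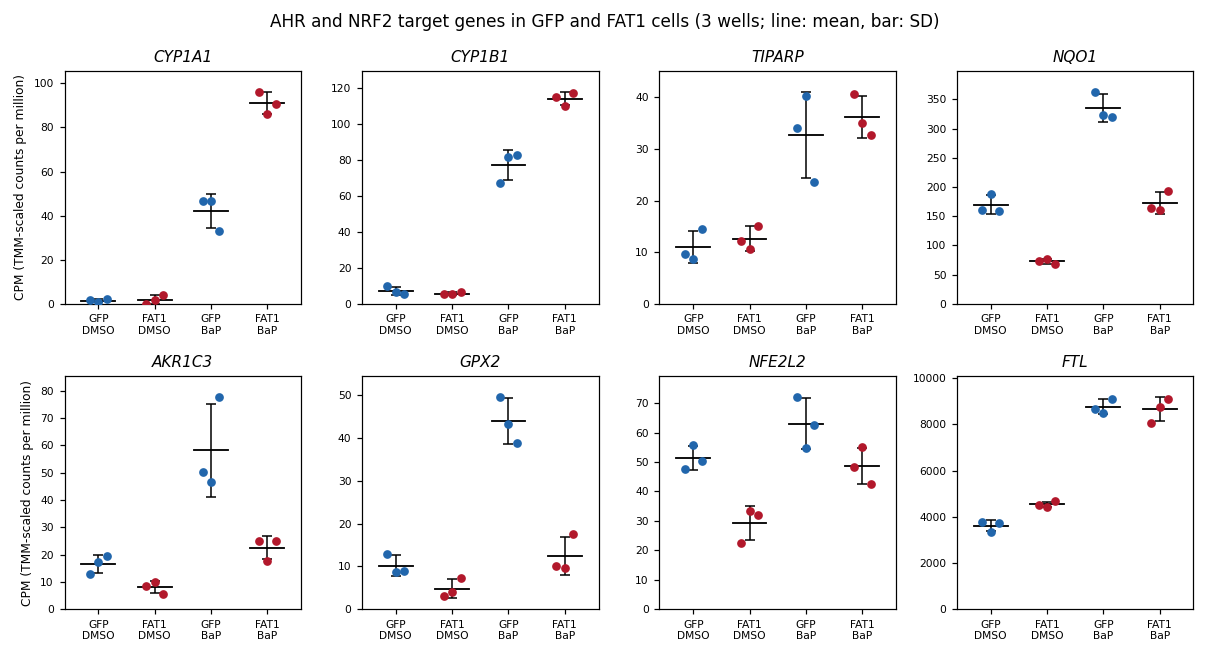
Levels in CPM (vertical axes, from 0) of 8 AHR and NRF2 program genes in each well of GFP (blue) and FAT1 (red) cells in DMSO and BaP, with means (lines) and SD (bars, n = 3). Under BaP CYP1A1 and CYP1B1 are higher in FAT1 cells, NQO1, AKR1C3 and GPX2 lower, and TIPARP and FTL overlap.

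Several NRF2 targets were lower in FAT1 cells. NQO1, which reduces quinones and is a target of both NRF2 and AHR, stood at 163, 161 and 193 CPM in FAT1 wells and 363, 323 and 320 CPM in GFP wells. The groups were far apart (-0.96, SE 0.09, adjusted p = 3.93e-11), and NQO1 in FAT1 cells under BaP averaged 173 CPM (SD 18.1, n = 3), beside 169 CPM (SD 16, n = 3) in GFP cells without BaP. In DMSO the difference was -1.24 (adjusted p = 5.72e-16), so the gap was present in the vehicle too.

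Of 22 listed NRF2 target enzymes 20 were tested, none was higher, 7 were lower and 13 were not called, with a median of -0.38. The aldo-keto reductases AKR1C1, AKR1C2 and AKR1C3, which reduce steroids and carbonyls, lie side by side on chromosome 10. Their sequences are closely similar, so their counts may be split. AKR1C3 was at 25, 17.5 and 25.1 CPM in FAT1 wells and 50.4, 46.4 and 77.7 CPM in GFP wells (-1.33, SE 0.21, adjusted p = 4.42e-06). AKR1C1 differed by -2.11 (SE 0.49, adjusted p = 0.00176) and AKR1C2 by -1.82 (SE 0.42, adjusted p = 0.00158).

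PGD, an NADPH-producing enzyme of the pentose phosphate pathway, fell by 0.68 on the log2 scale (SE 0.10, adjusted p = 2.33e-06). The iron-binding protein pirin (PIR) differed by -0.42 (adjusted p = 0.0141), but not without GFP replicate 1 (adjusted p = 0.121) or in DESeq2 (adjusted p = 0.0738). The ferritin heavy chain FTH1 differed by -0.24 (adjusted p = 0.0251), a call lost without GFP replicate 3 (adjusted p = 0.194) and without FAT1 replicate 3 (adjusted p = 0.0646). TALDO1, TKT and CBR1 were not called, with differences of 0.13, -0.10 and 0.16.

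FTL, the ferritin light chain, did reach the same level. Its FAT1 wells read 8076, 8763 and 9109 CPM and its GFP wells 8662, 8499 and 9114 CPM. The wells overlapped and the FTL difference of -0.01 had a 95% interval from -0.07 to 0.04 (adjusted p = 0.842). With library totals it was -0.07 and called (adjusted p = 0.00235). In DMSO the same gene had been higher in FAT1 cells by 0.29 (adjusted p = 3.23e-13), at 4501, 4429 and 4664 CPM against 3784, 3353 and 3710 CPM.

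NFE2L2, the gene of NRF2 itself, was at 48.4, 55.0 and 42.7 CPM in FAT1 cells and 72.1, 54.7 and 62.5 CPM in GFP cells, and was not called (-0.38, 95% interval -0.70 to -0.07, adjusted p = 0.112), but was without FAT1 replicate 2 (adjusted p = 0.0424). In DMSO it was called at -0.85 (adjusted p = 9.39e-05), and the change between chemicals was 0.42 (95% interval -0.04 to 0.89, adjusted p = 0.791). None of the 7 regulators tested was called under BaP, the repressor KEAP1 (-0.33) and the competing factor BACH1 (0.22) included.

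Enzymes of the glutathione and thioredoxin systems, which clear peroxides and conjugate electrophiles, split in direction. Of 34 tested, 8 were higher and 5 lower, with a median of 0.06, and the higher were 4 without GFP replicate 1 or FAT1 replicate 2 and 5 without GFP replicate 2. GSTM3, a glutathione transferase, was higher at 555, 522 and 540 CPM against 259, 287 and 262 CPM (1.01, SE 0.08, adjusted p = 4.15e-14). GPX2, a glutathione peroxidase of epithelia, was lower at 10.2, 9.57 and 17.5 CPM against 49.6, 43.3 and 38.8 CPM (-1.84, SE 0.25, adjusted p = 2.28e-07). Neither gene had overlapping wells. Under BaP GPX2 was also low in PIK3CA wells (12.2, 14.2 and 17.2 CPM), and read 14.4, 30.0 and 29.9 CPM in NRG1 and 34.5, 38.4 and 42.7 CPM in NRF2 wells.

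PRDX4 and PRDX1, peroxiredoxins that reduce hydrogen peroxide, fell by 0.92 (adjusted p = 3.17e-07) and 0.33 (adjusted p = 1.48e-07). The rate-limiting subunit of glutathione synthesis GCLC (-0.62, adjusted p = 0.116), its partner GCLM (0.29, adjusted p = 0.62) and the cystine carrier SLC7A11 (-0.47, adjusted p = 0.174) were not called. Catalase (CAT, -0.20, adjusted p = 0.536) and mitochondrial superoxide dismutase (SOD2, 0.64, adjusted p = 0.131) were not called either. Of 11 tested superoxide and peroxide enzymes 2 were higher and 2 lower (1 and 1 without GFP replicate 1 or 2 or FAT1 replicate 3). PARK7, a redox-sensing chaperone, fell by 0.45 (adjusted p = 5.62e-08), and MSRB1, which repairs oxidized methionine, was higher at 10.2, 10.4 and 12.2 CPM against 3.87, 0 and 1.90 CPM (2.56, SE 0.63, adjusted p = 0.00363).

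Metallothioneins, small cysteine-rich proteins that bind zinc and copper and scavenge radicals, were mostly lower. MT2A stood at 6981, 8534 and 8169 CPM in FAT1 wells and at 13483, 12956 and 14733 CPM in GFP wells. The groups did not overlap (-0.79, SE 0.03, adjusted p = 1.23e-22). Of 9 tested, 5 were lower and 1, MT1A (2.52, adjusted p = 0.000455), was higher, with a median of -0.47. MT1E differed by -0.47 (adjusted p = 1.32e-09) and MT1X by -0.42 (adjusted p = 6.73e-09), and the family shares a cluster on chromosome 16 and much of its sequence, so counts may be split among members.

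The bases before the start of MT2A are shown because metal response elements are packed there. They come from RefSeq (GRCh38.p14, chr16:56608334-56608583, plus strand, the 250 bases before the start), with matches of the core TGCNCNC on either strand in capitals.
MT2A: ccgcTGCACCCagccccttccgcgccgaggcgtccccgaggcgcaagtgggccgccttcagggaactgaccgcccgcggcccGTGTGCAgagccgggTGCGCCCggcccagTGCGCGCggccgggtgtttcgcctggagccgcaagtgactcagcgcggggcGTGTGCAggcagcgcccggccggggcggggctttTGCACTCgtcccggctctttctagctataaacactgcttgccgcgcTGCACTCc
This window held 7 matches. A short degenerate core is common, being found in 48.4% of the 27305 human promoters of the same window and in 4 of the 5 metallothioneins matched, so a match is a description of letters and not of a bound site.

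Interferon-stimulated genes had the highest median difference of the lists with at least 9 tested genes. These are antiviral and antigen-handling genes that cells switch on through factors such as STAT2 and IRF9 after interferon, or through IRF factors after sensing nucleic acid. Of 25 listed 22 were tested, and 12 were higher, none lower and 10 not called, with a median of 1.85. RNA-binding members of the IFIT family, at neighbouring positions on chromosome 10 (IFIT2 at chr10:91043451-91069028, IFIT3 at chr10:91087064-91137230 and IFIT1 at chr10:91152303-91166244 in hg19), were among the largest.

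IFIT2, which binds RNA and promotes apoptosis, was at 124, 158 and 161 CPM in FAT1 wells and 19.4, 17.5 and 16.1 CPM in GFP wells (3.03, SE 0.21, adjusted p = 1.47e-15). IFIT1, which binds RNA lacking a host cap, was at 39.8, 51.0 and 43.4 CPM against 5.42, 4.13 and 3.79 CPM (3.20, SE 0.36, adjusted p = 3.17e-09). IFIT3, its partner, was at 66.4, 71.7 and 68.5 CPM against 8.52, 4.13 and 13.3 CPM (3.03, SE 0.29, adjusted p = 5.2e-11). In all 3 the lowest FAT1 well lay far above the highest GFP well.

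IFI27, a mitochondrial protein used as a marker of interferon exposure, was at 60.1, 124 and 68.5 CPM against 7.75, 5.16 and 11.4 CPM (3.28, SE 0.35, adjusted p = 1.02e-09). ISG15, a ubiquitin-like modifier, was at 33.6, 28.7 and 29.7 CPM against 7.75, 5.16 and 10.4 CPM (1.95, SE 0.30, adjusted p = 4.12e-06). IFI44L had no count in the GFP wells and was at 7.81, 8.77 and 5.33 CPM in the FAT1 wells. Against a floor of 3 counts over the GFP wells it was at least 8.04-fold higher (adjusted p = 0.000232).

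Of the factors that drive the group, STAT2 (-0.08, 95% interval -0.58 to 0.41, adjusted p = 0.879) and IRF1 (0.22, adjusted p = 0.788) missed the threshold, as did the sparse IRF9 (1.04, adjusted p = 0.424) and IRF7 (1.82, adjusted p = 0.16). OAS1 was not called (0.59, adjusted p = 0.389). In wells that share no sample with these, 11 of 21 tested were higher in DMSO, 10 of 22 in CSC and 12 of 23 in NNK, with medians of 2.03, 1.36 and 1.59 and none lower. Of all genes 6.39% were called higher in DMSO, 4.75% in CSC and 6.48% in NNK. No member differed between BaP and DMSO in the test of that difference.

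Among the 5 populations used here under BaP, FAT1 cells had the highest mean in 10 of the 12 genes and GFP cells the lowest in 9. These genes had been picked out as higher in FAT1 than in GFP cells, and the CDKN2A knockout was not compared. Over all 1254 called genes FAT1 cells held the extreme mean in 855 and GFP cells in 863. The exceptions at the top of the 12 were IFITM3 and IFITM2, which restrict virus entry. IFITM3 averaged 38.7 CPM in FAT1 cells against 42.7, 47.6 and 80.8 CPM in NRF2, NRG1 and PIK3CA cells. The GFP cells, at 10.2 CPM, were the low population for that gene.

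**Figure D3:**
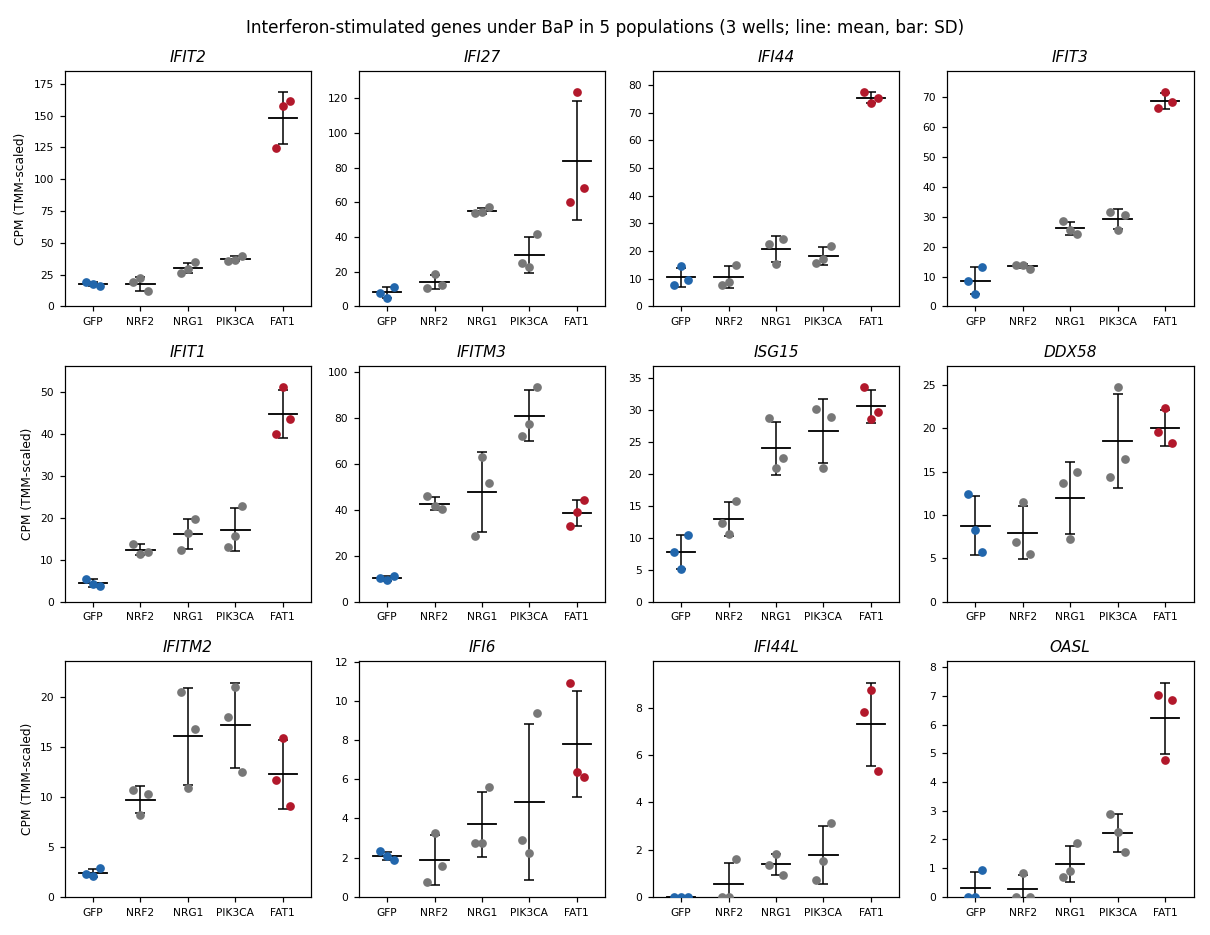
Levels under BaP in CPM (vertical axes, from 0) of the 12 called interferon-stimulated genes in each well of GFP (blue), NRF2, NRG1 and PIK3CA (grey) and FAT1 (red) cells, with means (lines) and SD (bars, n = 3). FAT1 cells stand above the other 4 populations for IFIT1, IFIT2, IFIT3 and IFI44, and for IFIT1 the GFP wells also lie below all others. For IFITM3 and IFITM2 the GFP cells are the ones that stand apart.

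The promoters of 5 of these genes are shown because the genes moved together and hold matches to the core of the interferon-stimulated response element. They come from RefSeq (GRCh38.p14) and hold the 250 bases before the start, in the direction of the gene. Matches of this core (GAAA, any 2 bases, GAAA) are in capitals on whichever strand they lie. The windows are chr10:89392373-89392622, plus strand for IFIT1, chr10:89327747-89327996, plus strand for IFIT3, chr1:1013247-1013496, plus strand for ISG15, chr14:94110486-94110735, plus strand for IFI27 and chr1:78620198-78620447, plus strand for IFI44L.
IFIT1: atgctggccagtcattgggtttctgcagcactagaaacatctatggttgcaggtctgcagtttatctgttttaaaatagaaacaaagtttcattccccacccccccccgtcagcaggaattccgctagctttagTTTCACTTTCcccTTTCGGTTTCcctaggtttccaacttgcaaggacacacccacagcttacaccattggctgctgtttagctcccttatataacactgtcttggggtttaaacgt
IFIT3: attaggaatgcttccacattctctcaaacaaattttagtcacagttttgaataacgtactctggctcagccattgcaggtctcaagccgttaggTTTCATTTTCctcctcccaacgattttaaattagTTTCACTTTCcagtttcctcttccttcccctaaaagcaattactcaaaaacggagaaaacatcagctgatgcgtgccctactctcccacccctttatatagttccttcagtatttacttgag
ISG15: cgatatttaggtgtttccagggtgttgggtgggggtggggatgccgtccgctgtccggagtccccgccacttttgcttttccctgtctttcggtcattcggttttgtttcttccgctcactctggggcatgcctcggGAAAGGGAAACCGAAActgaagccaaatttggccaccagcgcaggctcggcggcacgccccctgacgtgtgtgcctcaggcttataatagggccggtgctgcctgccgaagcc
IFI27: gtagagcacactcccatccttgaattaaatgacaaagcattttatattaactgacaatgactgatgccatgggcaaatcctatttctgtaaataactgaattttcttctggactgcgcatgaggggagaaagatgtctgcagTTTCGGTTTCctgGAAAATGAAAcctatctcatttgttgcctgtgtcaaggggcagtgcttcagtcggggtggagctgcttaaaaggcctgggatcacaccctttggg
IFI44L: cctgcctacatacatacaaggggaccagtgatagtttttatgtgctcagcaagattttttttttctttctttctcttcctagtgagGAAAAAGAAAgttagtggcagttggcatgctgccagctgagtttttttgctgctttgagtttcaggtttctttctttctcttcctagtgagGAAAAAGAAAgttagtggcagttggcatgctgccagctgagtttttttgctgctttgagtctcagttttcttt
Each window held 2 matches, which overlap in ISG15 and lie in 2 copies of a repeated stretch in IFI44L. The first began 116 bases before the start in IFIT1, 156 in IFIT3, 113 in ISG15, 108 in IFI27 and 164 in IFI44L. Of the 25 listed genes 18 were matched in the promoter table and 11 held the core (61.1%), against 839 of all 27305 promoters (3.07%). It was in 0 of 15 matched AHR pathway, 0 of 5 metallothionein, 0 of 18 sterol and 1 of 16 NRF2 target promoters. Among the called genes, the promoter of DDX58 held 0 matches and that of IFI44 held 1. The list was made of genes known to respond to interferon, so its high share is no test of the element. Here too a match is a description of letters and not of a bound site.

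MHC class I genes, many of them also interferon-responsive, did not share this pattern. Of 11 tested, 1 was higher and 3 lower, with a median of -0.56. The lower calls were down to 1 without GFP replicate 3 or FAT1 replicate 2 and to 2 without GFP replicate 2 or FAT1 replicate 3, and the higher one was kept only without FAT1 replicate 1 or GFP replicate 3. TAPBP, which loads peptides onto class I molecules, was at 46.1, 45.4 and 47.2 CPM against 88.3, 69.1 and 63.5 CPM (-0.66, SE 0.15, adjusted p = 0.00203). B2M, the invariant light chain, differed by -0.05 (95% interval -0.11 to 0.02, adjusted p = 0.438), though with library totals it was called at -0.10 (adjusted p = 0.00252). The genes HLA-B and HLA-C were not called (-0.18 and -0.56).

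Epithelial identity genes differed within the keratins. KRT14, a basal keratin, was at 7.03, 1.59 and 2.28 CPM in FAT1 wells against 20.9, 26.8 and 18 CPM in GFP wells (-2.67, SE 0.44, adjusted p = 1.09e-05). KRT18 and KRT19, keratins of simple epithelium, were higher by 0.78 (adjusted p = 2.9e-05) and 0.47 (adjusted p = 0.000195). KRT17, a keratin of basal and wounded epithelium, was lower by -0.44 (adjusted p = 0.00197).

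The 8 basal airway markers summed to 381 to 451 CPM in FAT1 wells and 619 to 632 CPM in GFP wells, with 4 of 7 tested lower and none higher. DST, which anchors keratins at the basal membrane, was at 112, 117 and 96.0 CPM against 225, 215 and 190 CPM (-0.95, SE 0.11, adjusted p = 3.5e-09). TP63, the factor that defines basal cells, was not called (0.20, 95% interval -0.31 to 0.72, adjusted p = 0.687). Wells were bulk samples, so fewer cells expressing a gene and less RNA per cell cannot be told apart.

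Of 11 mesenchymal genes tested 4 were higher and none lower. The higher count was 2 with library totals, in DESeq2 and without GFP replicate 1 or 3 or FAT1 replicate 1 or 2. Without GFP replicate 1 there was also 1 lower. TGFBI, a matrix protein induced by TGF-beta, was at 96.1, 84.5 and 83.8 CPM against 38.7, 47.5 and 56.9 CPM (0.92, SE 0.15, adjusted p = 1.33e-05), and fibronectin (FN1) at 13.3, 13.6 and 12.9 CPM against 3.10, 4.13 and 2.84 CPM (1.88, SE 0.42, adjusted p = 0.00137). The mesenchymal marker VIM (-0.45, adjusted p = 0.481) and the epithelial marker CDH1 (-0.18, adjusted p = 0.713) were not called. Fibroblast markers summed to 2.29 to 5.47 CPM in FAT1 wells and 0 to 1.90 CPM in GFP wells, with 5 of 7 at 0 in all 6 wells, and their part in the result was not tested. LGALS1, a galactose-binding lectin, was among the clearest increases, at 344, 394 and 404 CPM against 129, 128 and 123 CPM (1.59, SE 0.10, adjusted p = 4.87e-17).

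Hippo pathway genes lie downstream of FAT1 in the textbook scheme. Of 23 tested FAT and Hippo components 2 were called (8.7%, against 11.6% of all genes). FAT1 itself and STK3 were lower and none higher, and STK3, a Hippo kinase (-0.85, adjusted p = 0.0148), lost its call without GFP replicate 3 (adjusted p = 0.121), without FAT1 replicate 3 (adjusted p = 0.0862) and in DESeq2 (adjusted p = 0.143). The effectors YAP1 (0.12, 95% interval -0.72 to 0.97) and WWTR1 (-0.11, 95% interval -0.63 to 0.42) were not called. The YAP targets CYR61 (1.12, adjusted p = 0.248) and CTGF (1.65, adjusted p = 0.257) were sparse, at 1.52 to 9.37 CPM in FAT1 wells and 0 to 3.09 CPM in GFP wells. Of 15 YAP targets tested 1 was called, and none was without any 1 of the 6 wells.

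The 2 tested genes that lie beyond FAT1 toward the end of 4q were lower as well, a pair picked after their values were seen. FRG1 was at 24.2, 27.9 and 25.1 CPM against 56.6, 52.6 and 45.5 CPM (-0.99, SE 0.18, adjusted p = 0.000104), and has near-identical copies elsewhere that leave its counts uncertain. ZFP42 was at 2.34, 2.39 and 3.05 CPM against 9.30, 9.28 and 8.53 CPM (-1.67, SE 0.47, adjusted p = 0.0115), and DESeq2 did not call it (adjusted p = 0.126).

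Several genes of squamous epithelium were lower. S100A2, a calcium-binding protein of basal cells, was at 2731, 2720 and 2825 CPM against 4937, 4975 and 5301 CPM (-0.87, SE 0.03, adjusted p = 7.87e-24). Of 11 S100 genes tested 4 were lower and 1 higher (5 and none with library totals or without GFP replicate 1, 4 and none without GFP or FAT1 replicate 2), and S100A11 (-0.92, adjusted p = 5.93e-20) and S100A10 (-0.58, adjusted p = 1.94e-13) were among the lower. CSTA, a cysteine protease inhibitor of the cornified envelope, fell by 0.99 (adjusted p = 2.34e-15), and FGFBP1, which releases fibroblast growth factors from matrix, was at 96.1, 78.9 and 85.3 CPM against 390, 321 and 336 CPM (-2.01, SE 0.11, adjusted p = 8.64e-19).

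Actin and membrane scaffold genes gave 11 lower and 2 higher calls among 26 tested, with a median of -0.21. TMSB4X, the thymosin that holds actin monomers, was at 1946, 2132 and 2075 CPM against 3953, 3842 and 4260 CPM (-0.96, SE 0.04, adjusted p = 1.9e-23). The annexins ANXA2 and ANXA1 fell by 0.68 (adjusted p = 3.76e-18) and 0.55 (adjusted p = 9.52e-12).

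Biosynthetic programs were lower in part. Of 24 sterol and fatty acid synthesis genes tested 8 were lower and none higher, with a median of -0.40. IDI1, which isomerizes the building block of all isoprenoids, was at 283, 285 and 303 CPM against 786, 642 and 822 CPM (-1.36, SE 0.08, adjusted p = 2.52e-18). FDFT1 and FDPS, the next enzymes toward squalene, fell by 0.93 (adjusted p = 2.21e-13) and 0.60 (adjusted p = 4.99e-08).

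Among 21 ATF4 and endoplasmic reticulum stress genes 4 were lower and 1 higher, the higher one in no fit that left out a well. PSAT1, of serine synthesis, was at 78.9, 81.3 and 88.4 CPM against 351, 311 and 291 CPM (-1.93, SE 0.11, adjusted p = 4.29e-18), and ASNS, the asparagine synthetase, at 130, 136 and 153 CPM against 387, 367 and 316 CPM (-1.35, SE 0.10, adjusted p = 1.3e-14). The stress factor DDIT3 was not called (-0.15, adjusted p = 0.538).

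Of 30 cell cycle genes tested 10 were lower, 1 was higher and 19 were not called, with a median of -0.29, and DESeq2 called 4 lower. TOP2A, the topoisomerase of dividing cells, was at 224, 238 and 246 CPM against 456, 424 and 447 CPM (-0.90, SE 0.08, adjusted p = 2.23e-12), and the replication licensing factor MCM3 fell by 0.82 (adjusted p = 2.34e-05). MKI67, the usual proliferation marker, was not called (0.08, 95% interval -0.23 to 0.39, adjusted p = 0.799). CCND2, cyclin D2, went the other way at 20.3, 16.7 and 11.4 CPM against 1.55, 0 and 0.948 CPM (3.76, SE 0.74, adjusted p = 0.00023), while CCND1 was not called (-0.31, adjusted p = 0.599).

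Among p53 targets, 3 of 24 tested were higher and none lower. These calls were 12.5% of the list, beside 11.6% of all genes called in either direction and 5.45% called higher. The death receptor FAS was among the 3, at 55.5, 60.6 and 54.1 CPM against 29.4, 21.7 and 35.1 CPM (0.98, SE 0.18, adjusted p = 9.79e-05). The count of higher p53 targets was 1 without GFP replicate 1 or 2 or FAT1 replicate 1, and with library totals. The arrest gene CDKN1A (-0.16, 95% interval -0.62 to 0.31, adjusted p = 0.739) and MDM2 (0.50, adjusted p = 0.0646) were not called. The chaperone HSPB1 was higher by 1.14 (adjusted p = 7.14e-06) and HSP90AB1 lower by -0.73 (adjusted p = 3.48e-18), and the list split 4 to 4 among 14 tested, with 1 or 2 higher when any well but FAT1 replicate 1 was left out.

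Ribosomal protein genes were mostly higher. Of 82 tested 55 were higher and 7 lower, with a median of 0.33, and with library totals 55 were higher and 11 lower. RPL26, a protein of the large subunit, had the smallest adjusted p of all genes, at 10384, 10835 and 11410 CPM against 5587, 5581 and 5277 CPM (1.00, SE 0.03, adjusted p = 3.1e-27). The family took 36.9% of all counts in FAT1 wells (SD 0.57, n = 3) and 31.4% in GFP wells (SD 0.56, n = 3), and 36.1% and 31.1% in DMSO. Many have near-identical pseudogene copies, which leaves the level of single members uncertain. Oxidative phosphorylation subunits split, with 16 higher and 15 lower of 74 (7 higher without GFP replicate 1 and 9 without FAT1 replicate 2), and glycolysis genes likewise, with 5 higher and 3 lower of 23.

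Most of the differences under BaP were present without it. Of the 1254 genes called under BaP 1250 were also tested in DMSO wells, where 1213 (97.0%) had the same sign. The 853 called in both with the same sign were 68.0% of the BaP list and 54.3% of the 1570 genes called in DMSO (14.1% of 11142 tested, 6.39% higher and 7.7% lower). Genes not called under BaP shared the sign in 64.9% of cases. In CSC 761 were called alike, where 11.2% of all genes were called (4.75% higher and 6.41% lower), and in NNK 804, where 13.5% were (6.48% higher and 6.99% lower), and 590 genes were called in the same direction under all 4 chemicals, 262 higher and 328 lower. Population and plate position were tied in the same way under each chemical, so this agreement does not separate them.

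**Figure D4:**
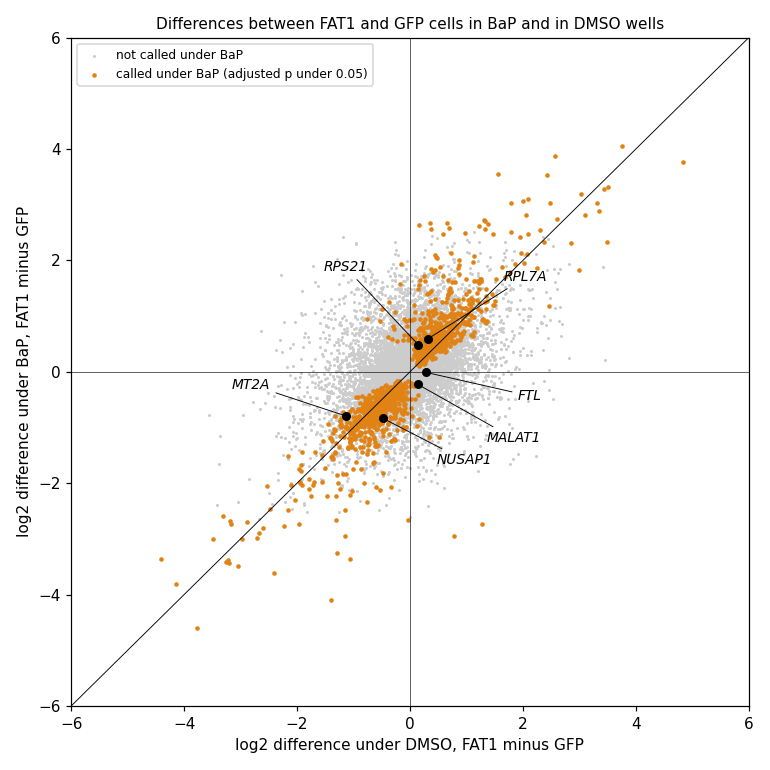
Log2 difference of FAT1 minus GFP cells in DMSO wells (horizontal) and in BaP wells (vertical) for every gene tested in both. Orange points were called under BaP, black points are the 6 genes whose difference changed between the chemicals, and the diagonal marks equal differences. Called genes run along the diagonal, with 1213 of 1250 of the same sign.

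A direct test of whether the difference changed between DMSO and BaP called 6 of 11107 genes (0.054%), 3 in each direction (0.027%), while 725 had an unadjusted p under 0.05. FTL was one of them, its difference moving by -0.35 (95% interval -0.44 to -0.26, adjusted p = 2.76e-07), since it rose by 1.28 in GFP cells and by 0.93 in FAT1 cells. MALAT1, a nuclear long non-coding RNA, was at 21127, 21528 and 21497 CPM in FAT1 wells and 25919, 24325 and 24935 CPM in GFP wells under BaP. Its difference was -0.22 under BaP and 0.14 in DMSO (change -0.41, adjusted p = 2.3e-16), where the wells overlapped. The other 4 were the ribosomal proteins RPL7A (0.23) and RPS21 (0.29), MT2A (0.29) and the spindle protein NUSAP1 (-0.40). Since DMSO and BaP wells lay in separate plate rows, this test cannot tell chemical from row.

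Neither CYP1A1, CYP1B1, NQO1 nor any interferon-stimulated gene was called in that test. DESeq2 called 1 gene in it, which was among the 6 above, and edgeR called 5, of which 3 were. For the AHR and NRF2 genes named above, the interval of the change is therefore the measure of what these 12 wells could show, and for NQO1 it ran from -0.05 to 0.53.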

How the data were processed

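UMI counts per gene in 33 wells were analysed, 24 of FAT1 and GFP cells under BaP, DMSO, CSC and NNK and 9 of NRF2, NRG1 and PIK3CA cells under BaP. The deposited values are raw counts, which the authors received ready-made: BWA 0.7.10 had placed reads on hg19 RefSeq transcripts, and each UMI counted once per gene and well. All 23895 symbols are as deposited, some of them older names. Groups came from sample titles.

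Counts were fitted with limma 3.58.1 (voom weights) and TMM factors of edgeR 4.0.16 in R 4.3.3, on the compared wells, for genes with a mean count above 1, two-sided, with Benjamini-Hochberg adjustment at 0.05. The change between chemicals was an interaction over 12 wells. CPM used TMM factors over all 33 wells. Alternatives included edgeR quasi-likelihood, DESeq2 1.42.0, other scalings and filters, and leaving out each well. The scripts were tested on simulated data.

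The members and gene lists were chosen with earlier results of these data known. Genes named were FAT1, the AHR and NRF2 lists, up to 8 genes each way by adjusted p and up to 5 by fold with a mean count of at least 10 and no overlap of wells, up to 4 called genes of every other list, genes a list is known by, which were picked after values were seen, and the 6 smallest p for the change between chemicals. The text gives a selection of these, and a few genes are not reported here. Gene positions are hg19 (GENCODE). Promoters are RefSeq GRCh38.p14.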

Additional observations from a re-analysis of the deposited data

Results flagged for a closer look

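The difference between FAT1 and GFP cells changed between DMSO and BaP in 6 genes by the interaction test in limma-voom. MALAT1 changed by -0.41 (adjusted p = 2.3e-16) and was called under all 19 other settings that fitted it. FTL changed by -0.35 (adjusted p = 2.76e-07) and was called under 19 of 20, the exception being DESeq2 (adjusted p = 0.083). RPL7A changed by 0.23 (adjusted p = 0.00029), called under 17 of 19, and RPS21 by 0.29 (adjusted p = 0.00137), called under 15 of 19. MT2A changed by 0.29 (adjusted p = 0.0376) and NUSAP1 by -0.40 (adjusted p = 0.0378), and each was called under 8 of 20 settings. All 6 kept their sign in every setting that fitted them, and MT2A ranged from 0.14 to 0.44 over those settings. The cause of these changes was not tested.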

How the results depend on the processing

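Of 1254 genes called under BaP, 639 were called by DESeq2, which called 724 of the 1570 in DMSO. The 6 genes of the change between chemicals became 1 in DESeq2, 2 among the 10000 most variable genes and 15 with the replicate block. Leaving out single wells gave 938 to 1098 calls under BaP, 1181 to 1306 in DMSO and 3 to 17 for the change between chemicals, the 17 without FAT1 replicate 3 under BaP, 13 without FAT1 replicate 1 in DMSO and 3 without GFP replicate 2 in DMSO. The replicate block gave 1410 calls under BaP and 1707 in DMSO. Same-numbered FAT1 and GFP wells shared no deviation under BaP (correlations -0.0061, -0.041 and -0.0022), and 0 of 3 FAT1 wells correlated best with their own number, so the numbers pair nothing here. The other alternatives moved none of these 3 totals by more than 1.5 times. By direction, the 589 higher calls under BaP were 253 in DESeq2 and 314 without GFP replicate 1, and DESeq2 lowered the counts of several lists, such as higher glutathione and thioredoxin genes (8 to 3) and higher heat shock genes (4 to 1). Over 203 eligible genes and their alternatives, 3267 of 3485 values kept direction and side of the threshold or were uncalled in both, 172 lost a call, 46 gained one and 0 reversed. Why these differ was not tested. Low counts limit FAT1, AHRR and the YAP targets.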
